A study of Mus musculus with 6 samples.

Results

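Synaptic adhesion molecules are transmembrane or membrane-anchored proteins that join the presynaptic and postsynaptic sides of a synapse and recruit the release machinery and receptors to it. The 36 genes described here were chosen by name: neuroligins, LRRTM, SLITRK, SALM, netrin-G ligand, FLRT, calsyntenin and SynCAM proteins, Il1rapl1, the netrin-G proteins and the LAR-type receptor phosphatases. These genes and the marker and partner lists used below were chosen with earlier results of these data known. All 36 had a row in each of the 6 count tables, which held 32531 gene rows, and all 36 passed the filter on low counts, as did 16496 genes in all.

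Thalamus was taken from adult control mice, given no treatment, of the line Slc17a6-EGFP/Rpl10a (JX883), in which ribosomes carry an EGFP-tagged Rpl10a. In translating ribosome affinity purification (TRAP), tagged ribosomes are pulled from a tissue homogenate with antibodies to EGFP, and the RNA bound to them is sequenced. Both groups carried the same transgene: 3 libraries were of immunopurified RNA (IP) and 3 of Input, with replicates 1, 2 and 3 in each. Input is treated here as tissue RNA before the pull-down, but its molecule label also reads ribosomal-bound. Slc17a6, after which the mice are named, encodes VGLUT2, a transporter that fills vesicles with glutamate. Which cells carry the tag, how many mice went into a library and whether replicates were different mice are not given in the labels. The p-values therefore reflect library-to-library spread, part of which could be technical. In bulk libraries of this kind, fewer cells of a type and less RNA per cell cannot be told apart.

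At a synapse, neurexins and LAR-type receptor phosphatases sit mainly on the axon side and bind several families of leucine-rich repeat and immunoglobulin-domain proteins on the dendrite side. Netrin-G1, the product of Ntng1, is a membrane-anchored protein of thalamocortical axons and binds the netrin-G ligand NGL-1, the product of Lrrc4c. Ptprd, Ptprs and Ptprf encode PTPδ, PTPσ and LAR, which bind SLITRK proteins, NGL-3 and, for PTPδ, the IL-1 receptor accessory-like protein.

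Upstream sequences of 5 members are shown so that genes that fell can be set beside genes that rose. Entries are from the RefSeq table (GRCm38.p6, the assembly that mm10 names). Each of the 5 had a window of 150 bases before the start with no annotated exon of the gene. Flrt2, Flrt3 and Clstn3, called only when replicate pairs were fitted, also had such a window, which is not shown. Ptprd had no entry. Of the sequences shown, the first 3 belong to genes that fell in IP whether or not replicate pairs were fitted. The last 2 belong to genes that rose only when they were. The windows lie at chr2:96318019-96318168 on the + strand for Lrrc4c, chrX:66649168-66649317 on the + strand for Slitrk2, chr16:67620909-67621058 on the - strand for Cadm2, chr6:77242327-77242476 on the + strand for Lrrtm1 and chr14:110755150-110755299 on the - strand for Slitrk6. The motifs searched on both strands were TATAAA, the TATA box, then CCAAT, the CCAAT box, then GGGCGG, the GC box, and CANNTG, the E-box. Capitals mark their matches, and no motif overlapped another in these windows.
Lrrc4c: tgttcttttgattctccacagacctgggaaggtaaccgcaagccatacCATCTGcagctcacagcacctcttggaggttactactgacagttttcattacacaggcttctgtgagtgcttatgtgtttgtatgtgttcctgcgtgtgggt
Slitrk2: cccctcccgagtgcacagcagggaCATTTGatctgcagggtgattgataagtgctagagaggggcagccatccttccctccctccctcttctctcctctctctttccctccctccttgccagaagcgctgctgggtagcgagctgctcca
Cadm2: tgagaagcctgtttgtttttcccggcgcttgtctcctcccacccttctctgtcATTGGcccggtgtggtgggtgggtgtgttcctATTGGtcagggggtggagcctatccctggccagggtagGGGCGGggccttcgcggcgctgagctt
Lrrtm1: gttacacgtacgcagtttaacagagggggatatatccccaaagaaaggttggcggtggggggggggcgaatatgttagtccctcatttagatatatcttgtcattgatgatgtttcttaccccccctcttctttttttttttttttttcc
Slitrk6: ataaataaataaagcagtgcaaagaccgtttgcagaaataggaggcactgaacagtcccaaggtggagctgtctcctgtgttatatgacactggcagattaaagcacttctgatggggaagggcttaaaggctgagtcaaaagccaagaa
Cadm2 held 2 CCAAT matches and 1 GGGCGG match, Lrrc4c and Slitrk2 held 1 CANNTG match each, and the Lrrtm1 and Slitrk6 windows held no match. Among all 33 windows of 28 members, with or without an exon of the gene, 18.2% held CCAAT, 27.3% GGGCGG, 42.4% CANNTG and 3.03% TATAAA. Among all 32851 windows of the table the shares were 24.5%, 28.6%, 47.7% and 7.57%. The median GC content was 59.3% in the member windows and 54% in all. Matches did not follow the direction of change across the other members called when replicate pairs were fitted. Of those that rose, Lrrtm3, Lrrc4b and Lrfn5 held E-box matches and Ntng1 held none, all in windows with an exon of the gene. The Clstn3 window with an exon held matches, and its window without an exon held none. Of those that fell, Flrt3 held 1 E-box match, and Flrt2 and Clstn2 held none. A further Slitrk2 window, with an exon, held 1 GC box match and no E-box match. A match describes letters in the window and is no evidence of binding.

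Libraries held 44081149 to 54421395 gene reads, and levels are given as CPM, gene reads scaled to a common library size with TMM factors. By library totals, before the TMM factors, 3 reads corresponded to between 0.0551 and 0.0681 CPM. Slc17a6 lay between 2193 and 6489 CPM in IP and between 477 and 3153 CPM in Input (log2 fold change 1.27 ± 0.68, edgeR adjusted p = 0.206, and 1.52 ± 0.19 and 0.000246 with the replicate number as a block). Slc17a6 is also 1 of 10 thalamic relay neuron markers, of which 5 rose and 0 fell (6 and 0 with the block) and 2 had negative estimates. The sum of the other 9 was 4601 to 5224 CPM in IP and 1994 to 4126 CPM in Input. Input replicate 3 had the lowest of these sums, and its sum over 10 striatal markers was 1211 CPM against 235 and 360 CPM in the other Input libraries. Values without this library are given where a call changed. All 15 oligodendrocyte markers fell, as did 11 of 12 astrocyte and 11 of 12 microglial markers, against a background of 9.6% of all tested genes higher and 15.6% lower in IP.

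Levels of the members covered a wide range. Per kilobase of exon, Ntng1 had the highest mean level in both groups, with an IP mean of 147 ± 38.8 and an Input mean of 89 ± 50.1 CPM (SD, n = 3). Lrrtm1 followed at 91.8 ± 7.66 and 60.1 ± 26.7 CPM per kilobase, and Clstn1 at 66.5 ± 20.4 and 56.1 ± 25. Across the IP libraries, Clstn1, Lrrc4b at 56.6 ± 14.1, Lrrtm2 at 52.7 ± 4.39 and Cadm3 at 48.9 ± 11.7 CPM per kilobase overlapped. Within each IP library, though, Clstn1 lay above Lrrtm2 and Cadm3. At the low end of IP stood Slitrk2, Il1rapl1 and Ntng2, at 1.08 ± 0.44, 1.21 ± 0.53 and 1.25 ± 0.8 CPM per kilobase, which also overlapped. Ptprd ranked 8 of 36 in Input and 22 in IP, Cadm2 moved from rank 9 to 17 and Lrrc4c from rank 6 to 12.

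**Figure D1:**
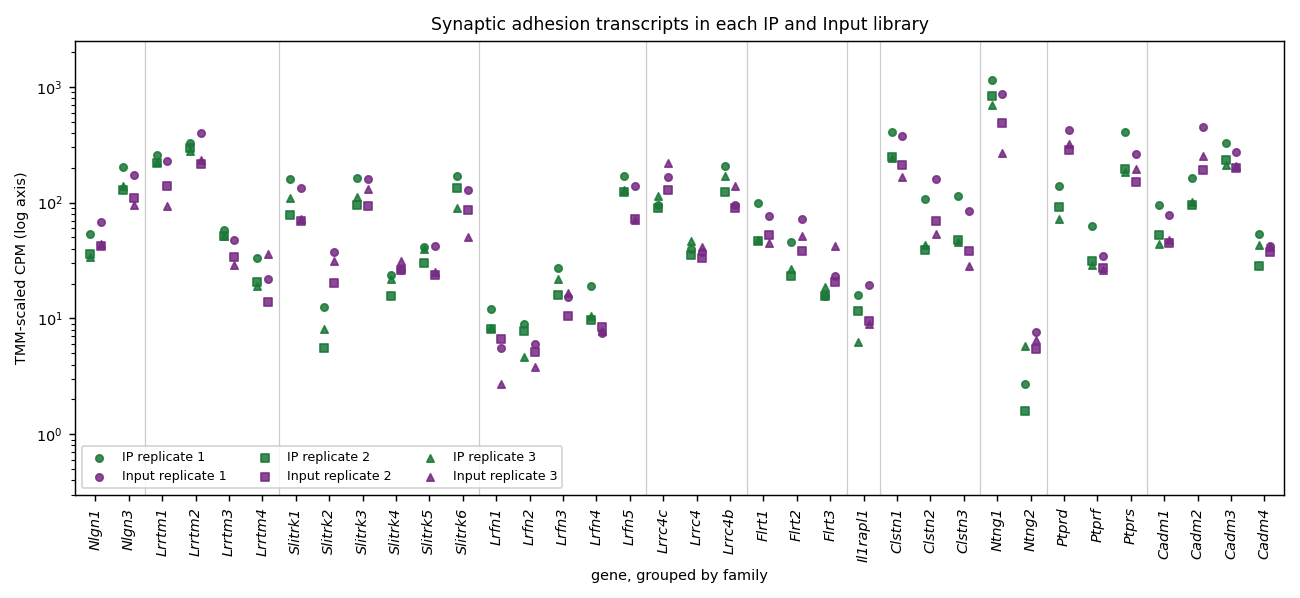
TMM-scaled CPM (log axis) of the 36 genes in each library, with IP in green, Input in purple and the symbol shape giving the replicate. Ntng1 lies between 267 and 1156 CPM, highest in every library but Input replicate 3, where Ptprd lies above it at 323 CPM, and the IP symbols of Ptprd, Cadm2, Slitrk2 and Lrrc4c lie below all 3 of their Input symbols.

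Of the 36 members, 4 fell in IP, namely Ptprd, Slitrk2, Cadm2 and Lrrc4c, and none rose (edgeR quasi-likelihood test, adjusted p under 0.05). Over all tested genes, 9.6% were higher and 15.6% lower, so the 11.1% of members lower in IP is near the background. The median log2 fold change was 0.18 over the members and -0.04 over all tested genes. At an unadjusted edgeR p under 0.05, 3 members were higher and 6 lower (16.1% and 22% of all genes). DESeq2 and limma-voom each called 0 members higher and 4 lower, where DESeq2 called 12.7% of genes higher and 19.8% lower and limma-voom 10.6% and 16.5%.

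Libraries of the same number departed from their group means in a correlated way, and with the replicate number as a block 7 members rose and 7 fell. The block called 15.9% of all genes higher and 19.2% lower, against 19.4% of members in each direction. The 7 that rose were Ntng1, Lrrtm1, Lrfn5, Slitrk6, Lrrc4b, Lrrtm3 and Clstn3. Flrt2, Flrt3 and Clstn2 were lower with the block in addition to the 4 genes named above. IP was above Input in 3 of 3 replicate pairs for 17 members and below it in 3 of 3 for 10, against 30.3% and 33.7% of all tested genes.

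**Figure D2:**
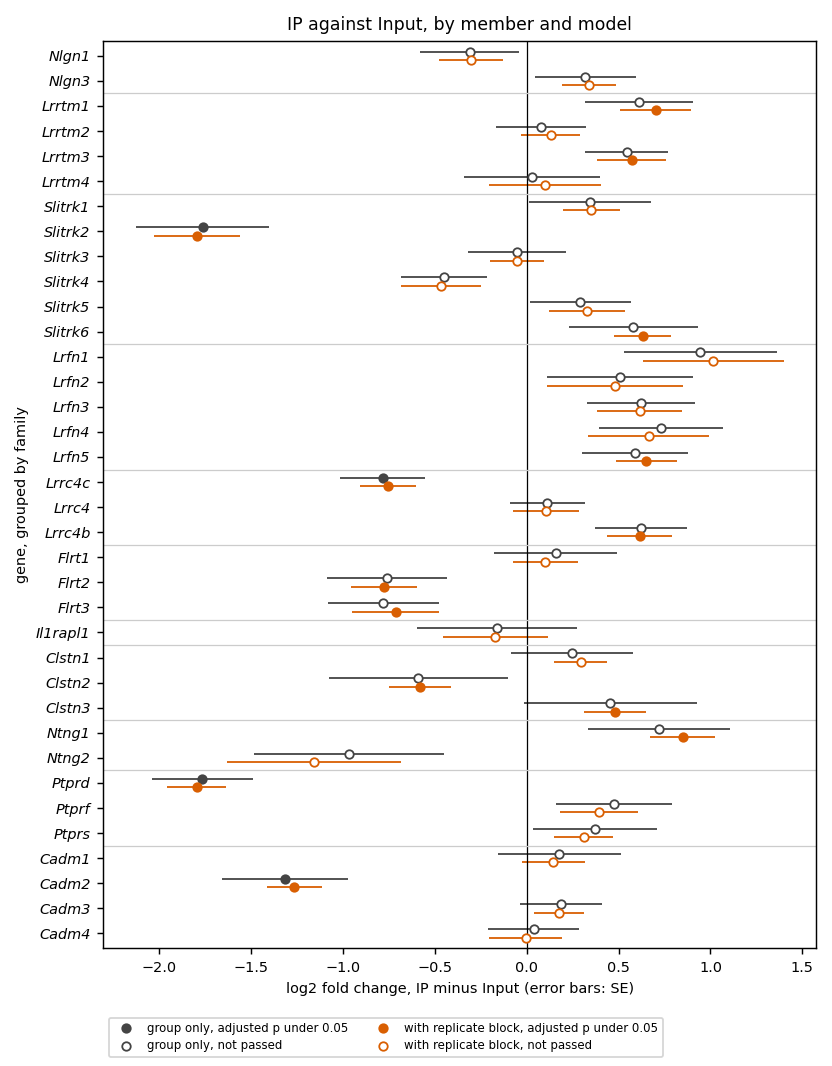
Log2 fold change of IP minus Input (x axis, error bars SE) for each gene, from the model with group only (dark grey) and with the replicate block (orange), filled where the adjusted p was under 0.05. Estimates of the 2 models lie close together, and the error bars are shorter with the block, with Ptprd at -1.77 ± 0.28 without it and -1.80 ± 0.16 with it.

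On the axon side, Ptprd had 139, 92.4 and 72.3 CPM in IP replicates 1, 2 and 3 and 427, 284 and 323 CPM in Input. Every IP library lay below every Input library, as it did for 6 members in all and for 25% of tested genes. The IP mean was 101 ± 34.4 CPM against an Input mean of 344 ± 73.7 CPM (SD, n = 3). On the log2 scale IP minus Input was -1.77 ± 0.28 (SE), with an edgeR adjusted p of 0.00331. Its call held in 6 of 6 fits without 1 library, with an edgeR adjusted p of at most 0.0192. Without both libraries of replicate 2 the value was -1.83 and the edgeR adjusted p 0.0511. Ptprd, a gene of 2271 kb on chromosome 4 from 75941238 to 78211961 (GRCm38), encodes PTPδ, a receptor phosphatase that organises presynaptic terminals.

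The other phosphatases of the family did not pass the test. Ptprs had 408, 194 and 184 CPM in IP and 262, 151 and 194 CPM in Input, for a fitted log2 difference of 0.37 ± 0.34 (edgeR adjusted p = 0.461). For Ptprf the levels were 62.6, 31 and 29.1 CPM in IP and 34.4, 27.4 and 26.4 CPM in Input, with a log2 fold change of 0.48 ± 0.32 (edgeR adjusted p = 0.307). For both genes the highest library was IP replicate 1, and the groups overlapped. Of the family's summed level per kilobase, Ptprd made up 16.4% to 21.4% in IP and 48.7% to 51.3% in Input, while Ptprs made up 68.4% to 73.2% in IP and 41.6% to 45.7% in Input. The log2 ratio of Ptprd to Ptprs per kilobase was -1.93 ± 0.24 in IP and 0.17 ± 0.11 in Input (SD, n = 3), a difference of -2.11. This ratio and those to the most abundant other family member given below for Lrrc4c, Slitrk2 and Cadm2 were formed because these genes were called lower, so they describe the families and carry no test.

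**Figure D3:**
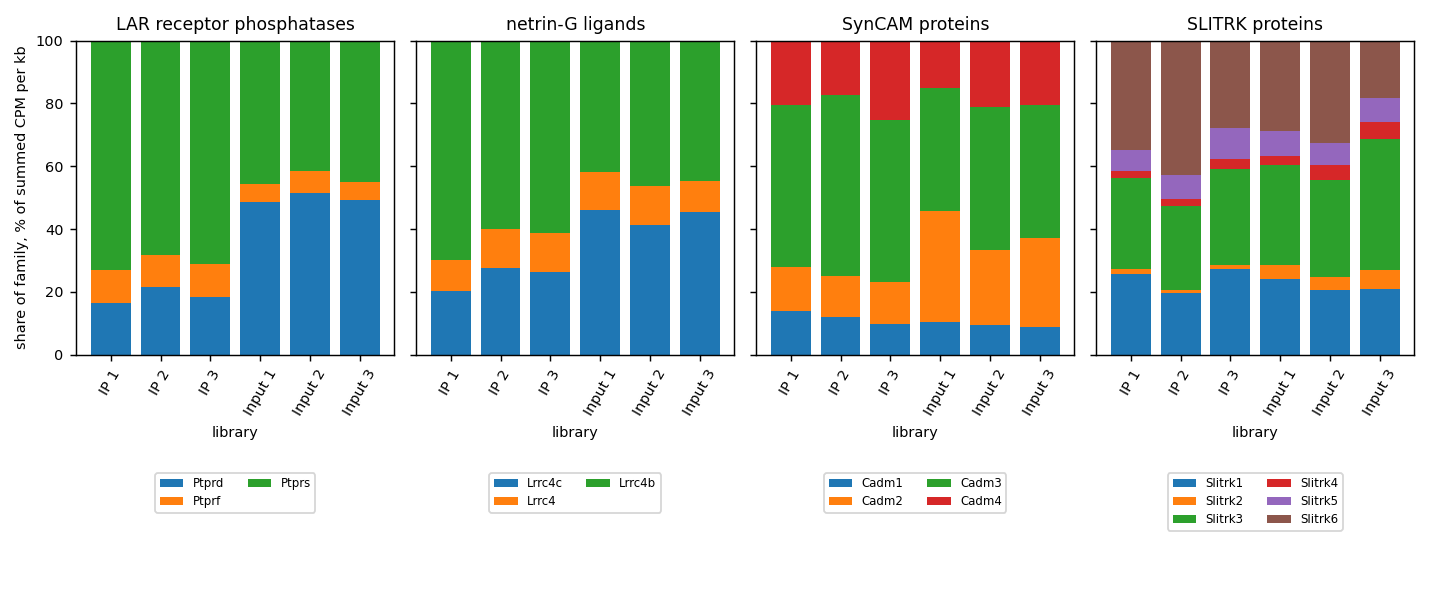
Share of each gene in the summed CPM per kilobase of exon of its family (y axis, percent) in each library, for the 4 families with a member that fell. Ptprd takes 16.4% to 21.4% of the LAR family in IP and 48.7% to 51.3% in Input, and Lrrc4c takes 20.4% to 27.6% of the netrin-G ligands in IP and 41.4% to 46.2% in Input.

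The netrin-G genes differed widely in level. Ntng1 had 1156, 835 and 694 CPM in IP and 873, 491 and 267 CPM in Input. IP was higher within each replicate number, with log2 ratios of 0.41, 0.77 and 1.38, but the groups overlapped. Without the block its log2 difference was 0.72 ± 0.39, with an edgeR adjusted p of 0.210. With the block Ntng1 rose by log2 0.85 ± 0.18 (edgeR adjusted p = 0.00405), and it passed in 3 of 3 blocked fits without 1 replicate number. The lowest Ntng1 level was in Input replicate 3, the library with the lowest sum of thalamic markers and the highest of striatal markers, and the part of this in the result was not tested. Without replicate 3 the blocked log2 fold change of Ntng1 was 0.60 (edgeR adjusted p = 0.0017).

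Ntng2, which encodes netrin-G2, had 2.7, 1.58 and 5.74 CPM in IP and 7.65, 5.44 and 6.52 CPM in Input. Its log2 difference was -0.97 ± 0.52 (edgeR adjusted p = 0.205, and 0.0817 with the block). Ntng1 made up 98.1% to 99.6% of the pair's level per kilobase in IP and 94.7% to 98% in Input. Of the exon bases of Ntng2, 20.9% also lie in an exon of 6530402F18Rik on the same strand in GENCODE M21, so reads there may have been counted as ambiguous.

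Among the dendritic netrin-G ligands, Lrrc4c fell. Its levels were 94.7, 89.3 and 115 CPM in IP and 166, 127 and 221 CPM in Input, and the groups did not overlap. The log2 fold change was -0.78 ± 0.23 (edgeR adjusted p = 0.0381). This call ended in 5 of 6 fits without 1 library, and passed only without Input replicate 2. The highest edgeR adjusted p was 0.133, without IP replicate 2, and the value without Input replicate 3 was -0.55 (edgeR adjusted p = 0.0943). With the replicate block it was -0.76 ± 0.15 (edgeR adjusted p = 0.00350) and passed in 3 of 3 blocked fits without 1 replicate number.

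Lrrc4b, which encodes NGL-3, a partner of the LAR-type phosphatases, had 205, 123 and 169 CPM in IP and 95.4, 90 and 138 CPM in Input. Its log2 fold change was 0.62 ± 0.25 (edgeR adjusted p = 0.104) and 0.61 ± 0.18 with the block (edgeR adjusted p = 0.0217), and it passed in 1 of 3 blocked fits without 1 replicate number. Without replicate 1 the blocked value was 0.37 (edgeR adjusted p = 0.132), and without replicate 2 it was 0.69 (edgeR adjusted p = 0.0532). Lrrc4, the gene of NGL-2, which binds netrin-G2, had 35.1 to 46.6 CPM in IP and 33.1 to 41.7 CPM in Input (log2 fold change 0.11 ± 0.20, edgeR adjusted p = 0.736). The log2 ratio of Lrrc4c to Lrrc4b per kilobase was -1.37 ± 0.35 in IP and 0.0024 ± 0.15 in Input (SD, n = 3).

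Of the 6 SLITRK genes, whose products bind PTPδ and PTPσ, Slitrk2 fell. It had 12.6, 5.59 and 8.06 CPM in IP and 37.6, 20.1 and 31.6 CPM in Input, with no overlap. The log2 fold change was -1.77 ± 0.36 (edgeR adjusted p = 0.00968), and the call held in 6 of 6 fits without 1 library, with an edgeR adjusted p of at most 0.0375. Without both libraries of replicate 2 the edgeR adjusted p was 0.0571. Slitrk3, the most abundant of the family per kilobase in Input, had 163, 96 and 113 CPM in IP and 161, 93.7 and 131 CPM in Input, values that overlapped (log2 fold change -0.05 ± 0.27, edgeR adjusted p = 0.909). The log2 ratio of Slitrk2 to Slitrk3 per kilobase was -4.60 ± 0.21 in IP and -2.86 ± 0.09 in Input (SD, n = 3).

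Slitrk6 had 171, 134 and 89 CPM in IP and 128, 86 and 50.2 CPM in Input. The groups overlapped, but each IP library lay above the Input library of its number, and with the block the log2 fold change was 0.63 ± 0.15 (edgeR adjusted p = 0.00943), against 0.58 ± 0.35 without it (edgeR adjusted p = 0.264). It passed in 2 of 3 blocked fits without 1 replicate number, the exception being replicate 2 (edgeR adjusted p = 0.0810). Slitrk1, Slitrk4 and Slitrk5 passed in neither model, with log2 fold changes of 0.34, -0.45 and 0.29. For Slitrk4 every IP library lay below every Input library, at 15.7 to 23.5 against 26.1 to 31.2 CPM.

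The LRRTM proteins are leucine-rich repeat proteins of excitatory postsynapses that bind neurexins or heparan sulphate. Lrrtm1 had 256, 220 and 225 CPM in IP and 227, 138 and 93.8 CPM in Input. Its IP libraries lay close together while Input spread over a wider range, and the log2 ratios within replicates were 0.17, 0.68 and 1.26. With the block it rose by log2 0.70 ± 0.19 (edgeR adjusted p = 0.0171), and without the block the value was 0.61 ± 0.30 (edgeR adjusted p = 0.165). Without replicate 2 the blocked call ended (edgeR adjusted p = 0.0509). Without replicate 3, which holds the lowest Lrrtm1 level, the blocked value was 0.43 (edgeR adjusted p = 0.0401), and without replicate 1 it was 0.97 (edgeR adjusted p = 0.000889).

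Lrrtm3 had 57.9, 51.3 and 51.3 CPM in IP and 47.2, 34 and 28.9 CPM in Input, so that every IP library lay above every Input library. This held for 3 members in all and for 19.9% of tested genes. Its log2 fold change was 0.54 ± 0.23 (edgeR adjusted p = 0.115) and 0.57 ± 0.19 with the block (edgeR adjusted p = 0.0355), a call made in 1 of 3 blocked fits without 1 replicate number. The blocked edgeR adjusted p was 0.194 without replicate 2 and 0.0674 without replicate 3. Lrrtm2, at 277 to 326 CPM in IP and 217 to 397 CPM in Input, and Lrrtm4, at 19 to 33.3 CPM in IP and 13.9 to 35.7 CPM in Input, had log2 fold changes of 0.08 and 0.03. Lrrtm4 was highest of the Input libraries in replicate 3, and its log2 ratios were 0.60, 0.59 and -0.91 in replicates 1, 2 and 3. Of its exon bases, 25.1% lie opposite an antisense gene in GENCODE M21, for which the count tables hold no row under that name.

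All 5 SALM genes (Lrfn1 to Lrfn5), whose products bind postsynaptic scaffolds or LAR-type phosphatases, were higher in IP in 3 of 3 replicate pairs. So were 17 of all 36 members and 30.3% of all tested genes. None passed without the block, with log2 fold changes from 0.51 to 0.94. Lrfn5, the most abundant, had 170, 124 and 129 CPM in IP and 139, 71.7 and 70.8 CPM in Input. It rose with the block by log2 0.65 ± 0.16 (edgeR adjusted p = 0.0110), and passed in 2 of 3 blocked fits without 1 replicate number, the exception being replicate 2 (edgeR adjusted p = 0.104). Lrfn1, at 12.1, 8.13 and 8.31 CPM in IP and 5.52, 6.61 and 2.7 CPM in Input, and Lrfn4, at 19, 9.72 and 10.5 CPM in IP and 7.42, 8.45 and 7.77 CPM in Input, did not overlap between the groups. Their edgeR adjusted p values with the block were 0.0629 and 0.142.

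Neuroligins are postsynaptic partners of neurexins. Nlgn1, a neuroligin of excitatory synapses, had 53.7, 36.1 and 34.2 CPM in IP and 68.1, 42 and 43.7 CPM in Input, and was lower in IP in each replicate pair with log2 ratios of -0.34, -0.22 and -0.35. Nlgn3 had 204, 130 and 139 CPM in IP and 174, 109 and 96 CPM in Input. Neither passed, with log2 fold changes of -0.31 ± 0.27 and 0.32 ± 0.27 (edgeR adjusted p = 0.442 and 0.436). Nlgn1 made up 15.1% to 16.8% of the pair's level per kilobase in IP and 21.8% to 24.8% in Input. For Nlgn3, 44.6% of exon bases are shared with Gm21986 in GENCODE M21, a name with no row in the count tables.

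The FLRT proteins bind latrophilins and Unc5 receptors. Flrt2 had 45.9, 23.1 and 26.6 CPM in IP and 72.5, 38.6 and 51 CPM in Input, a log2 fold change of -0.76 ± 0.33 (edgeR adjusted p = 0.121) and -0.78 ± 0.18 with the block (edgeR adjusted p = 0.00696). The blocked call held in 3 of 3 fits without 1 replicate number. Flrt3 had 15.6, 15.7 and 18.7 CPM in IP and 23.3, 20.6 and 42 CPM in Input, with no overlap. Its log2 fold change was -0.78 ± 0.30 (edgeR adjusted p = 0.0922) and -0.71 ± 0.24 with the block (edgeR adjusted p = 0.0366), and it passed in 0 of 3 blocked fits without 1 replicate number. Without Input replicate 3, the library with the highest Flrt3 level, the value was -0.39 (edgeR adjusted p = 0.257), and the blocked value without replicate 3 was -0.48 (edgeR adjusted p = 0.134). Without replicate 1 or 2 the blocked edgeR adjusted p was 0.0659 or 0.0693. Flrt1 had 46.7 to 98.9 CPM in IP and 45 to 76 CPM in Input and passed in neither model.

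Calsyntenins are cadherin-like proteins, of which calsyntenin-1 also links cargo to kinesin. Clstn1 had 405, 250 and 242 CPM in IP and 379, 211 and 166 CPM in Input, and did not pass (log2 fold change 0.25 ± 0.33, edgeR adjusted p = 0.634). Clstn2 had 107, 39 and 43.5 CPM in IP and 161, 69.7 and 54.1 CPM in Input, and Clstn3 had 114, 47.9 and 45.4 CPM in IP and 84.6, 38.2 and 28.3 CPM in Input. In both groups replicate 1 was by far the highest, so the groups overlapped although IP differed from Input in the same direction in each pair. With the block Clstn2 fell by 0.58 on the log2 scale (edgeR adjusted p = 0.0204) and Clstn3 rose by log2 0.48 (edgeR adjusted p = 0.0491), calls made in 1 and 0 of 3 blocked fits without 1 replicate number. For Clstn2 the blocked edgeR adjusted p was 0.0754 without replicate 1 and 0.216 without replicate 2, and for Clstn3 it was 0.135, 0.155 and 0.106 without replicates 1, 2 and 3. Il1rapl1, whose product binds PTPδ across the synapse, had 6.24 to 16.1 CPM in IP and 8.9 to 19.4 CPM in Input (log2 fold change -0.16 ± 0.44, edgeR adjusted p = 0.822).

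SynCAM proteins are immunoglobulin-domain proteins found on both sides of the synapse. Cadm2 fell, with 164, 96.2 and 101 CPM in IP and 452, 192 and 255 CPM in Input and no overlap. The log2 fold change was -1.32 ± 0.34 (edgeR adjusted p = 0.0235) and -1.27 ± 0.15 with the block (edgeR adjusted p = 0.000150). Without IP replicate 2 or IP replicate 3 the edgeR adjusted p was 0.0856 or 0.0782, and without Input replicate 1 the value was -0.89. Without both libraries of replicate 2 the edgeR adjusted p was 0.0891, and without both of replicate 3 it was 0.0780. The call with the block held in 3 of 3 fits without 1 replicate number. Cadm1, Cadm3 and Cadm4 passed in neither model, with log2 fold changes of 0.18, 0.18 and 0.04. Cadm3, the most abundant of the 4 per kilobase, had 327, 231 and 213 CPM in IP and 273, 198 and 207 CPM in Input. The log2 ratio of Cadm2 to Cadm3 per kilobase was -2.00 ± 0.14 in IP and -0.56 ± 0.39 in Input (SD, n = 3). Exons of Ackr1 cover 6.87% of the exon bases of Cadm3.

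The falls of Ptprd, Slitrk2, Cadm2 and Lrrc4c went along with lower levels of markers of other cells in IP. The sum of the 15 oligodendrocyte markers was 195 to 342 CPM in IP and 4260 to 6000.4 CPM in Input. That of 12 astrocyte markers was 344 to 834 CPM in IP and 1522 to 3166 CPM in Input, and that of 12 microglial markers 6.64 to 11.3 and 80.9 to 122 CPM, with Trem2 at 0 in IP. Most of the astrocyte sum in both groups was Slc1a2, with a mean of 492 CPM in IP and 1510 CPM in Input. Its log2 fold change was -1.62, against a median of -4.18 over the 12 astrocyte markers. Of 8 oligodendrocyte precursor markers 6 fell and 0 rose (6 and 1 with the block), with sums of 125 to 186 CPM in IP and 301 to 335 CPM in Input. Most of the IP sum was Lhfpl3, the gene that rose with the block, and without it the sums were 11.2 to 26.4 CPM in IP and 197 to 255 CPM in Input. Of 10 endothelial and mural markers 7 fell, at 2.92 to 3.44 against 34.8 to 48.3 CPM, with Tie1 at 0 in IP. Of 10 GABAergic neuron markers 6 fell (10 with the block), at 112 to 266 CPM in IP and 849 to 1437 CPM in Input. Of 8 habenula markers 6 fell, at 29.4 to 38.3 against 114 to 305 CPM. Of 9 tested cortical and hippocampal markers 1 rose and 0 fell (edgeR, and 1 and 2 with the block), at 177 to 280 CPM in IP and 140 to 371 CPM in Input. Of 10 striatal markers 0 rose and 1 fell (0 and 4 with the block). Their sums were 222 to 327 CPM in IP and 235 to 1211 CPM in Input, highest in Input replicate 3. The part of these cells in the 4 falls was not tested. The mean IP sum was 5.59% of the mean Input sum for oligodendrocyte, 8.24% for microglial and 26.2% for astrocyte markers. It was 7.63% for endothelial and mural, 16.6% for GABAergic neuron, 16.7% for habenula and 45.4% for striatal markers. For oligodendrocyte precursor markers it was 47.5%, and for cortical and hippocampal markers 101%. Most of the cortical and hippocampal IP sum was Rasgrf2 and Cux2. Rasgrf2 had a mean of 130 CPM in IP and 67.5 CPM in Input, and Cux2 55.1 and 54.2 CPM. Of the 9 tested markers of this list 7 had negative and 2 positive estimates, with a median log2 fold change of -1.11. The IP mean was 29.4% of the Input mean for Ptprd, 29.4% for Slitrk2, 40.2% for Cadm2 and 58% for Lrrc4c.

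A long genomic span also went along with 3 of the 4 falls, and its part in them was not tested. Ptprd, Lrrc4c and Cadm2 span 2271, 1313 and 965 kb, and Slitrk2 spans 12.1 kb. The split at 500 kb was chosen after the values were seen. Of 7 members longer than 500 kb, 3 fell without the block and 4 with it, and 0 rose in either model. Of the 29 shorter members 1 fell and 0 rose without the block, and 3 fell and 7 rose with it. The median log2 fold change was -0.59 in the long members and 0.32 in the others. Over 13767 tested genes matched to a single protein-coding gene, it was -0.22 for 213 genes longer than 500 kb and 0.03 for the rest, with 19.7% and 13.6% lower in IP and 5.16% and 10.9% higher. With the block, 25.4% of those long genes were lower and 9.39% higher, against 17.6% and 18.1% of the rest. Spearman's rho of span and log2 fold change was -0.34 across the 36 members and -0.26 across the 13767 genes, which share the same libraries. The other long members, Il1rapl1, Nlgn1 and Lrrtm4, passed in neither model, and Lrrtm4, of 791 kb, was the 1 of the 7 with a positive estimate, at 0.03.

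**Figure D4:**
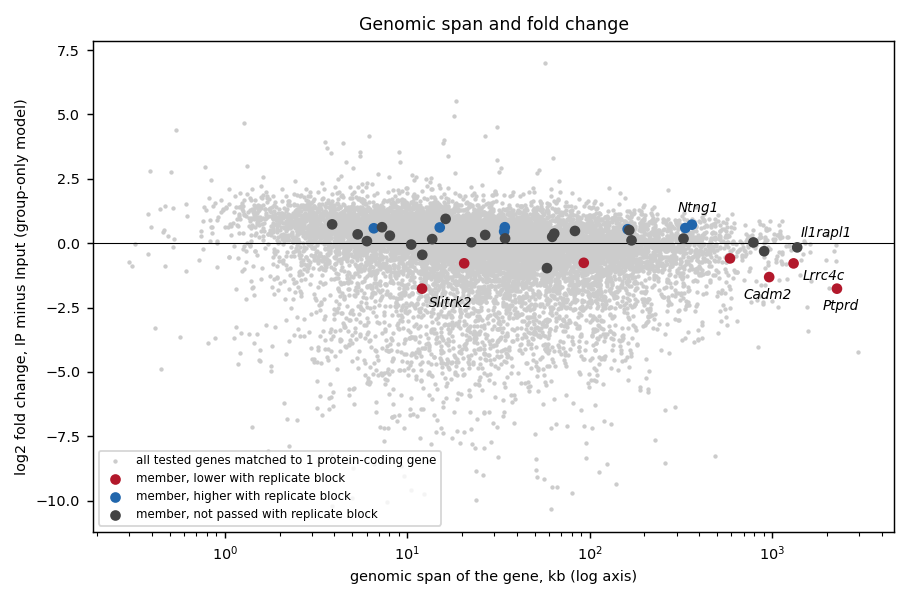
Log2 fold change of IP minus Input from the group-only model (y axis) against the genomic span of the gene in kb (x axis, log scale), for 13767 tested genes in grey and the 36 members in colour by their call with the replicate block. The 3 longest genes among those that fell, Ptprd, Lrrc4c and Cadm2, lie at the right below 0, and Slitrk2, of 12.1 kb, lies at the same fold change as Ptprd.

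Replicate 1 stood above the other replicates for most members, in both groups. IP replicate 1 was the highest IP library for 32 of 36 members, and Input replicate 1 the highest Input library for 27 of 36, against 38.3% and 35.1% of all tested genes. In IP replicate 1 the median member stood at 1.52 times the mean of its level in IP replicates 2 and 3, and in Input replicate 1 at 1.51 times that in Input replicates 2 and 3. Over all tested genes these medians were 0.97 and 0.99. With library totals in place of TMM scaling they were 1.35 and 1.41 for the members and 0.86 and 0.92 for all genes. Slc17a6 was also highest in replicate 1 of each group. The sum of the other 9 thalamic markers was not highest there in IP, at 4641, 5224 and 4601 CPM in replicates 1, 2 and 3, and in Input it was 4126, 3529 and 1994 CPM. The labels carry lane codes that differ by replicate number and are shared by its IP and Input library, so lane and replicate cannot be told apart.

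**Figure D5:**
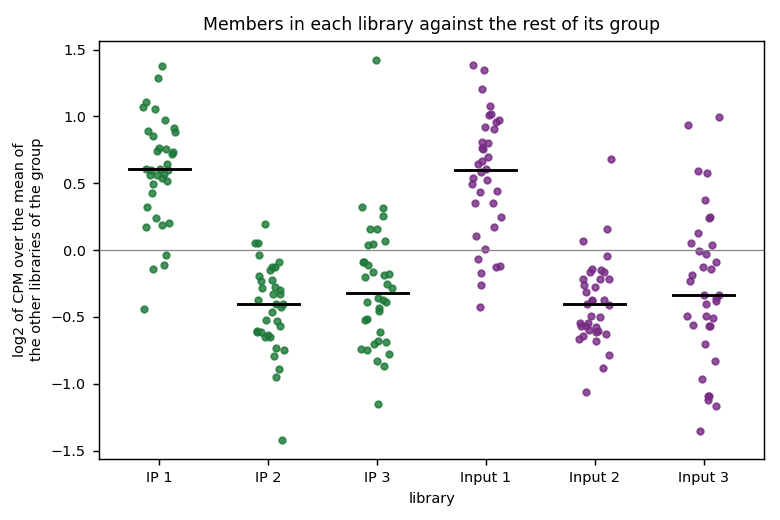
Log2 of each member's CPM over the mean of the other 2 libraries of its group (y axis), by library (x axis), with 1 point a gene and a bar at the median. Points of replicate 1 lie mostly above 0 in both groups, with 32 of 36 members above the other IP libraries' mean in IP replicate 1 and 30 of 36 in Input replicate 1.

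Partners of these proteins inside the cell and on the axon were followed with lists of 18 mostly presynaptic and 17 postsynaptic genes. The first list also holds Mdga1 and Mdga2, whose products act on neuroligins, so it is not a list of the axon side alone. Of the 18 genes of this list, 3 rose and 1, Mdga2, fell (5 and 1 with the block). These were 16.7% and 5.56% (27.8% and 5.56% with the block), against 9.6% and 15.6% of all tested genes (15.9% and 19.2% with the block). The median of the list was 0.12 on the log2 scale, against -0.04 over all tested genes. Ppfia4, a liprin-α that binds LAR-type phosphatases, rose from 23.8 to 36.6 CPM in Input to 59.6 to 62.7 CPM in IP (log2 fold change 1.08 ± 0.22, edgeR adjusted p = 0.00875). Ppfia2, another liprin-α, rose by log2 0.62 ± 0.16 (edgeR adjusted p = 0.0249) and the neurexin gene Nrxn2 by 0.64 ± 0.16 (edgeR adjusted p = 0.0205). Mdga2, which encodes a protein that blocks neuroligin binding to neurexin, fell from 74.8 to 109 CPM in Input to 40.7 to 56.8 CPM in IP (log2 fold change -0.95 ± 0.22, edgeR adjusted p = 0.0147).

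Of the postsynaptic scaffold genes 1 rose and 2 fell (5 and 3 with the block), or 5.88% and 11.8% (29.4% and 17.6% with the block), beside the same shares of all tested genes. The list's median was -0.03. Magi3 rose by log2 0.56 ± 0.16 (edgeR adjusted p = 0.0337). Dlg1, the gene of SAP97, fell from 56.4 to 99.4 CPM in Input to 23.4 to 32.9 CPM in IP (log2 fold change -1.36 ± 0.26, edgeR adjusted p = 0.00762). Homer2 fell by 0.88 on the log2 scale (edgeR adjusted p = 0.00968).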

How the data were processed

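The 6 libraries were grouped from their titles into 3 IP and 3 Input libraries. The authors deposited 1 table of raw read counts per gene for each library. The submitters' processing notes name mm10, STAR 2.0.0e and HTSeq. Annotation, counting mode and use of strand were not given in the sources used here. Reads of overlapping or antisense genes therefore cannot be told apart. HTSeq summary rows and a row named unknown, with 9 reads in all, were removed first. On average 1.79% of records in IP and 9.34% in Input were ambiguous, and 40.8% and 25.8% aligned at more than 1 place.

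In edgeR 4.0.16 under R 4.3.3, filterByExpr kept 16496 genes, TMM factors scaled the libraries, and IP was compared with Input by a quasi-likelihood F test. Its p-values were adjusted by Benjamini-Hochberg over all kept genes and called under 0.05. CPM includes the TMM factors, and the SE is the log2 fold change over the square root of its F statistic. Exon lengths and positions are from GENCODE M21 (GRCm38), with lengths taken over protein-coding transcripts. The fit was tested on simulated data. Alternatives were DESeq2 1.42.0, limma-voom (limma 3.58.1), other scalings and filters, the replicate block, and leaving out libraries.

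Deviations of same-numbered libraries from their group means correlated across genes at 0.456, 0.215 and 0.246 for replicates 1, 2 and 3, all over 0.1, so the numbers from the titles were taken to pair the libraries. The model without the block stayed the main one, since the labels state no paired test. The members and gene lists were chosen with earlier results of these data known. All 36 members were reported, and from each pathway list up to 3 called genes in each direction by adjusted p. Figures used matplotlib 3.10.9.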

Additional observations from a re-analysis of the deposited data

How the results depend on the processing

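With RLE, library-total or upper-quartile scaling, DESeq2, limma-voom, other filters or no clone-accession features, 4 members were lower and 0 higher in IP, as in the model reported. These scalings moved the median log2 fold change of all genes from -0.04 to at most -0.13, and without a filter it was -0.24. With the replicate block 7 members were higher and 7 lower, and 2624 genes were higher in all. When 1 library or replicate number was left out, members higher ranged from 0 to 4 and members lower from 0 to 4, genes higher from 83 to 1640 and genes lower from 651 to 2598. The lowest of these came without both libraries of replicate 2, where 0 members were called. Members higher numbered 4 without Input replicate 1, namely Lrrtm1, Lrrtm3, Lrfn5 and Ntng1. Members lower numbered 2 without IP replicate 2, IP replicate 3 or replicate 3. With the block and 1 replicate number left out, which was added after seeing the data, members higher ranged from 1 to 10, members lower from 5 to 7, and genes higher from 1549 to 3026. No member reversed its direction with a call in any setting. Over all pairs of a member and a planned setting, 614 kept their side of the threshold, 20 passed newly and 14 no longer passed. Member counts were at least 84 reads per library in IP and 119 in Input.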

Other observations

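In GENCODE M21, 8 of the 36 genes lie within the bounds of another protein-coding gene, in each case on the opposite strand. Lrrtm1, Lrrtm2 and Lrrtm3 lie within the α-catenin genes Ctnna2, Ctnna1 and Ctnna3. Host and nested gene did not share a fold change in each case: Ctnna3 had 8, 8 and 3 reads in IP and 104, 50 and 31 reads in Input and fell (log2 fold change -3.42 ± 0.93, edgeR adjusted p = 0.0276), while Lrrtm3 within it had a log2 fold change of 0.54. Ctnna2 and Ctnna1 had log2 fold changes of 0.29 and 0.07 that did not pass. Flrt1 and Flrt3 lie within Macrod1 and Macrod2, at -0.47 and 0.33, and Lrrc4 within Snd1, at 0.09, of which none passed. Lrfn1 and Lrfn4 lie within Samd4b and Pcx.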
